A study of Zea mays with 4 samples.

Results

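The MADS box genes of maize were followed across 4 Affymetrix maize arrays as the 20 probe sets, of 19 genes, whose symbol or synonym is zmm, zag or mads followed by a number, or zap1. They were chosen by name from the platform annotation and the current synonyms of its gene numbers, out of 1452 probe sets with a single gene (1108 genes) and 17621 probe sets in all. All 20 matched through a synonym, and another 13 genes with such names in the reference annotation had no probe set named here and were not analysed here. Total RNA came from 2 inbred lines, Cm489 and F98902, with 2 arrays per line. No allele or treatment is labelled for either line, and both were grown in potting soil under a long-day cycle with added natural light. All 4 samples are described as aerial material at the flower development stage, with no organ named. Each sample title carries its own code after the line name (pl9, pl10, pl6 and pl18), which may mark a plant but is not explained. Separate plants are thus not stated outright, and p-values measure only the spread between these samples, which may be technical. The labelled RNA amounts were 100 ug for Cm489 replicate 2, and 102 and 52 ug for F98902 replicates 1 and 2. The extract protocol of Cm489 replicate 1 names Cm489 replicate 2, so no amount is given for replicate 1.

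MADS box proteins are transcription factors that bind DNA as dimers and larger complexes. In flowers, combinations of classes set organ identity: AP1/FUL-type proteins act in the change to flowering and in floral meristems, B class proteins in lodicules and stamens, C class proteins in stamens and carpels, D class proteins in ovules, and SEPALLATA (SEP) proteins join the others into complexes. Not all members are floral: SVP-type genes, and AP1/FUL-type genes in grasses, are also known from leaves and stems.

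Values are log2 signals made by the authors with GCRMA, a method that leaves probe sets with no specific signal at a narrow floor near the low end of the scale. A value under 4 is treated here as the floor and gives no level, only that the probe set was below this mark. Signals of different probe sets depend on their probes and are not compared with each other. In bulk material, fewer cells of a type and less RNA per cell cannot be told apart, and neither can a missing transcript and probes that differ from a line's sequence.

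The 20 probe sets fell into a group with signal on every array and a larger group at the floor on every array. The AP1/FUL-type genes zap1, m15 and m28, the SVP-type gene zmm19 and the SEP-type genes zmm24 and zmm31 had signal at or above 4 on all 4 arrays. The other 14 probe sets (13 genes) were below 4 on all 4 arrays, which is 70.0% of the members. Over the whole array 32.4% of 17621 probe sets lay below 4 on all 4 arrays and 56.7% at or above it on all 4, and of the 1452 probe sets with a single gene 28.2% lay below. No member crossed the mark between arrays, and the split was 6 and 14 also after each array was shifted to a common median and after quantile normalization. The array medians ran only from 6.99 to 7.11, and the values nearest the mark were 3.77 (zmm16) and 4.41 (zmm31). A median shift thus could not have changed the split.

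**Figure D1:**
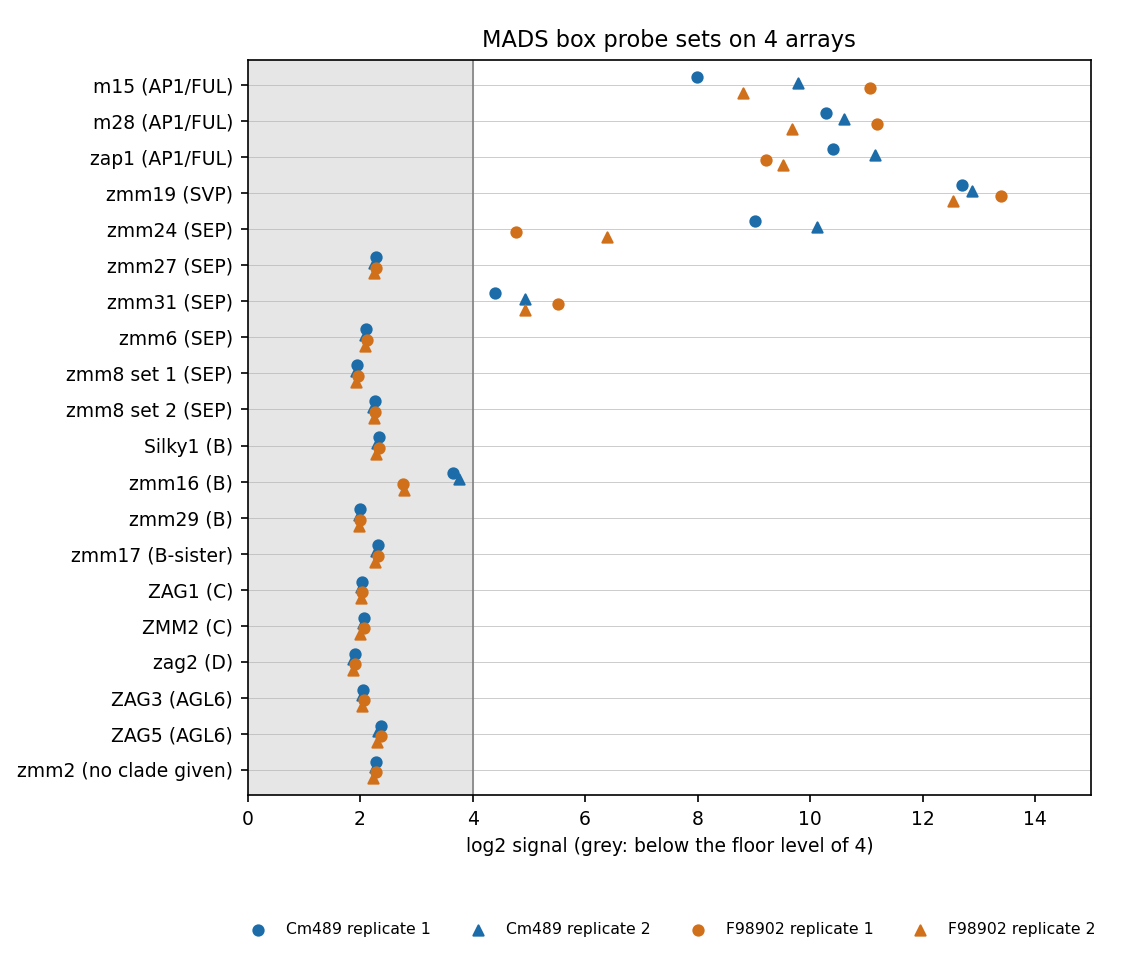
Log2 signal (x axis) of each of the 20 MADS box probe sets (y axis, with the class of the gene in brackets), 1 point per array, with Cm489 in blue and F98902 in orange, circles for replicate 1 and triangles for replicate 2. The grey area is below the floor level of 4, where 14 probe sets lie on all 4 arrays, while zmm24 spreads from 4.78 to 10.12.

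**Figure D2:**
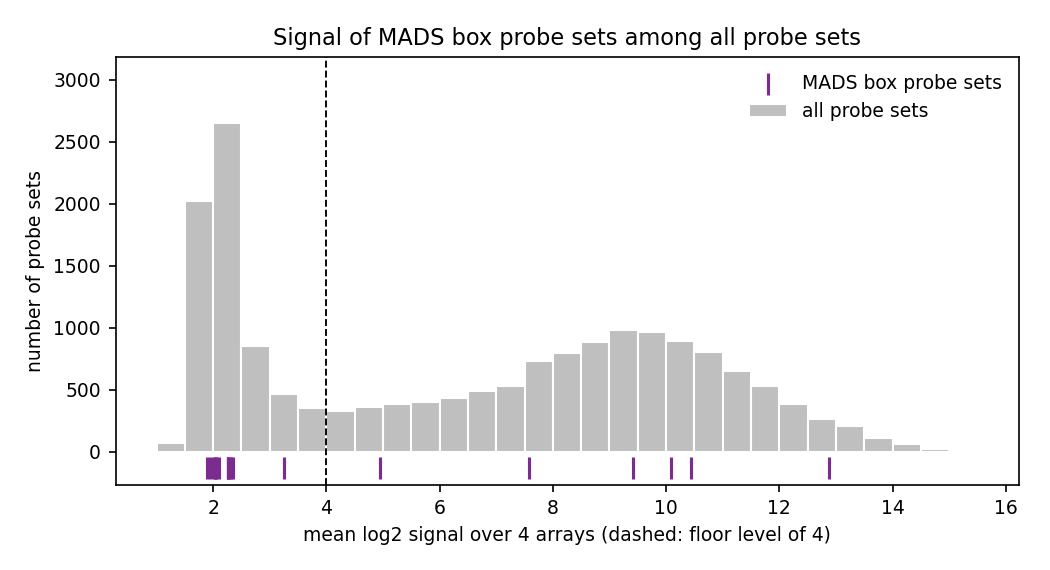
Number of probe sets (y axis) by mean log2 signal over the 4 arrays (x axis, bins of 0.5) for all 17621 probe sets as grey bars, with the 20 MADS box probe sets as ticks under the axis. The dashed line is the floor level of 4, with 14 ticks to its left and 6 to its right.

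Among the AP1/FUL-type genes, zap1 (LOC542257), the maize relative of the floral identity gene APETALA1, had signals of 10.42 and 11.16 on the Cm489 arrays and 9.21 and 9.53 on the F98902 arrays. Both F98902 arrays lay below both Cm489 arrays. The mean was 10.79 ± 0.52 (SD, n = 2) in Cm489 and 9.37 ± 0.22 (SD, n = 2) in F98902, a difference of -1.42 (SE 0.48, 95% confidence interval -2.75 to -0.0859). Over all probe sets it did not pass the threshold of 0.05 (limma, Benjamini-Hochberg adjusted p = 0.445; unadjusted p = 0.0417).

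The gene m15 (LOC542032, also MADS15), of the grass subgroup that holds the vernalization gene VRN1 of wheat and barley, had signals of 7.99 and 9.78 in Cm489 and 11.07 and 8.81 in F98902. Each line had a high and a low array, and F98902 replicate 2 lay between the Cm489 arrays. The difference between the lines was 1.05 (SE 1.09, 95% confidence interval -1.95 to 4.06, limma adjusted p = 0.871). It was -0.0788 without F98902 replicate 1 and 2.18 without F98902 replicate 2, so its direction rested on a single array.

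The third gene of this class, m28 (LOC542045, usually called zmm28), had signals of 10.29 and 10.61 in Cm489 and 11.19 and 9.68 in F98902. The Cm489 arrays lay between the F98902 arrays. The difference was -0.0162 (SE 0.67, 95% confidence interval -1.87 to 1.83, limma adjusted p = 0.997), and it turned to 0.74 without F98902 replicate 2, to 0.15 without Cm489 replicate 2, to 0.0393 with equal array medians and to 0.0047 with quantile normalization.

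The SVP-type gene zmm19 (LOC542033) is the gene whose misexpression in the ear gives the pod corn trait of Tunicate1, in which leaf-like husks enclose the kernels. Its signals were 12.69 and 12.89 in Cm489 and 13.39 and 12.54 in F98902. All 4 arrays were well above the floor, and the Cm489 arrays lay within the range of the F98902 arrays. The difference of 0.17 (SE 0.50, 95% confidence interval -1.20 to 1.55) did not pass (limma adjusted p = 0.964), and it was -0.25 without F98902 replicate 1.

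The SEP-type gene zmm24 (LOC542038), of the grass subgroup that includes the rice inflorescence gene PANICLE PHYTOMER2, varied most over the arrays. Its signals were 9.02 and 10.12 in Cm489 and 4.78 and 6.40 in F98902. Both F98902 arrays lay below both Cm489 arrays, and F98902 replicate 1 lay close to the floor level. The mean was 9.57 ± 0.78 (SD, n = 2) in Cm489 and 5.59 ± 1.15 (SD, n = 2) in F98902, a difference of -3.98 (SE 0.79, 95% confidence interval -6.17 to -1.79). On a linear scale the signal in F98902 was 15.8-fold lower, with an interval from 3.47-fold to 71.9-fold. It did not pass the threshold (limma adjusted p = 0.182, unadjusted p = 0.00712). Over alternatives with all 4 arrays, its limma adjusted p ran from 0.163 (equal array medians) to 0.427 (no dim filter). The filter at log2 6 and the pairing chosen after seeing the data are not in this range, but no MADS box probe set passed under either. A difference of this size or more, in either direction, was seen in 382 of 11242 tested probe sets (3.40%). The difference was -3.17 without F98902 replicate 1 and -4.79 without F98902 replicate 2.

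Its relative zmm31 (LOC542040), of the same SEP subgroup, stayed near the floor level. Its signals were 4.41 and 4.93 in Cm489 and 5.53 and 4.93 in F98902, and the arrays of the lines met at 4.93. The difference was 0.56 (SE 0.48, 95% confidence interval -0.77 to 1.89, limma adjusted p = 0.837). Whether zmm24 and zmm31 differ in their response to line was not tested.

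Of the 6 tested MADS box probe sets, 0 passed the limma test in either direction, against 1.78% of all 11242 tested probe sets (0.934% higher and 0.845% lower in F98902). A count of 0 among 6 is near that background. The smallest differences that passed anywhere on the array were a rise of 3.62 and a fall of -3.70. Only zmm24 (-3.98) of the 6 was beyond these, so the count says little about the members. Without adjustment 2 of 6, zmm24 and zap1, had p under 0.05, against 10.5% of all tested. In 3 of 6 the F98902 mean was higher and in 3 lower, against 51.2% lower among all tested. The median difference was 0.0791, against -0.0194 over all tested probe sets. The arrays of the lines did not overlap for 2 of the 6, zap1 and zmm24, both lower in F98902, where 38.0% of all tested probe sets did not overlap and 20.0% were lower in this way. The 6 were tested because they passed the filter on low values, and the other 14 members were not tested. With 2 arrays per line the smallest two-sided p of an exact permutation test is 0.333, so none was used.

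**Figure D3:**
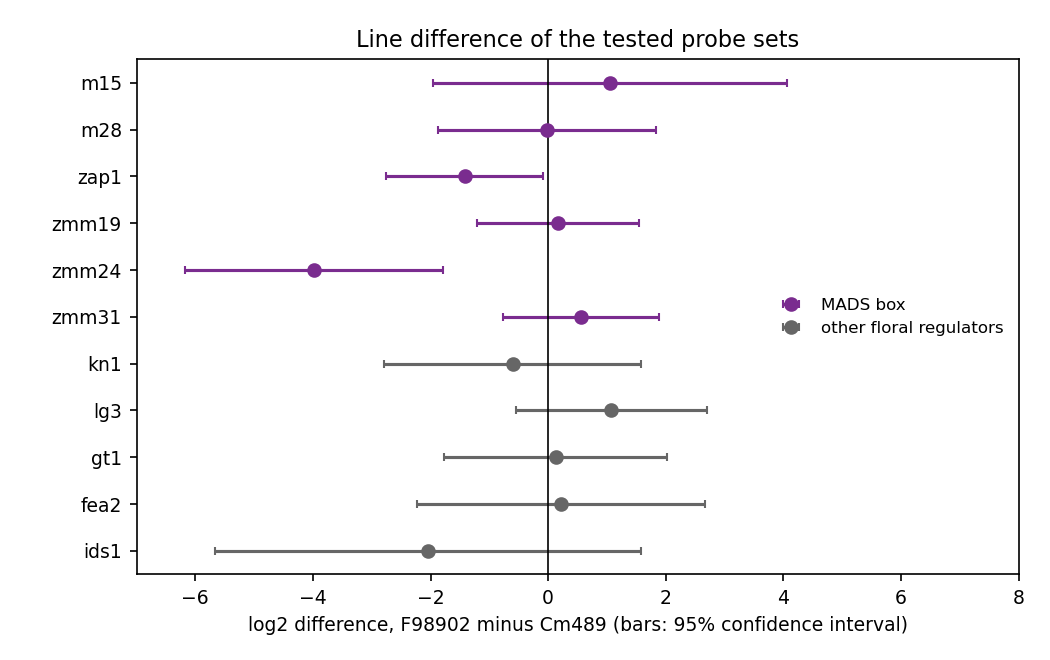
Log2 difference, F98902 minus Cm489 (x axis), of the 6 tested MADS box probe sets (purple) and 5 tested probe sets of other floral regulators (grey), with bars for the 95% confidence interval from limma. The intervals of zmm24 (-6.17 to -1.79) and zap1 (-2.75 to -0.0859) leave out 0, before any adjustment for the number of probe sets.

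The other SEP-type genes were at the floor on all arrays. These were zmm8 (LOC541985, a name that shares its entry with zmm14), known from the upper floret of the maize spikelet, zmm6 (LOC542043, an entry shared with zmm7) and zmm27 (LOC542506). The 2 probe sets of zmm8 ran from 1.93 to 1.96 and from 2.24 to 2.27. Signal for zmm6 was 2.11, 2.09, 2.12 and 2.09 and for zmm27 2.28, 2.25, 2.28 and 2.25, in the order Cm489 replicates 1 and 2 and F98902 replicates 1 and 2. Of the 6 SEP-type probe sets, 2 thus had signal and 4 did not.

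All B class probe sets lay below the mark. Silky1 (LOC541799), the maize APETALA3-type gene needed for stamens and lodicules, ran from 2.28 to 2.34, and zmm29 (LOC542020), of the PISTILLATA type, from 1.98 to 2.005. The other PISTILLATA-type gene, zmm16 (LOC542019, also sts1 for sterile tassel silky ear), had values of 3.66 and 3.77 in Cm489 and 2.76 and 2.79 in F98902. Both lines were under 4, so these values give no level and no order of the lines.

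The C, D, B-sister and AGL6-type genes were at the floor as well. ZAG1 (LOC542244), an AGAMOUS-type C class gene of stamens, carpels and floral determinacy, ran from 2.02 to 2.04, and its relative ZMM2 (LOC100037764) from 2.01 to 2.08. The D class gene zag2 (LOC542325), known from ovules and carpels, ran from 1.87 to 1.91 and the B-sister gene zmm17 (LOC542013) from 2.26 to 2.32. ZAG3 (LOC542256), the bearded-ear gene, which acts in floral meristem fate and determinacy, ran from 2.04 to 2.06, and its relative ZAG5 (LOC542709) from 2.31 to 2.37. A further gene with the name zmm2 (LOC541764), which shares that name with ZMM2 but is another entry, ran from 2.24 to 2.29.

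Apart from zmm16, these 13 probe sets lay between 1.87 and 2.37 and moved by 0.0271 to 0.0712 over the 4 arrays. GCRMA leaves little spread at its floor, so this range is no measure of how the transcripts varied. The labelled stage is flower development, and the B, C and D class probe sets, the markers of stamens, carpels and ovules among the members, were below 4 on all 4 arrays.

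The MADS box genes with signal differed between the arrays of a line, and not all in the same way. Replicate 2 lay above replicate 1 in Cm489 and below it in F98902 for 4 of the 6, which 32.4% of all tested probe sets also did. Taken as replicate 2 minus replicate 1, m15 differed by 1.79 within Cm489 and by -2.26 within F98902, m28 by 0.32 and -1.51, zmm19 by 0.19 and -0.86, and zmm31 by 0.53 and -0.60. For zmm24 (1.10 and 1.62) and zap1 (0.74 and 0.31) replicate 2 lay above replicate 1 in both lines, as in 10.9% of all tested probe sets.

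Markers of other material were measured on the same arrays. All 5 secondary wall probe sets (cesa10, cesa11, cesa12, bk2 and bm1), for cellulose synthases, a COBRA-like wall protein and a lignin enzyme, were above 4 on all arrays. Their mean log2 signal was 10.35 and 13.52 in Cm489 and 12.96 and 10.74 in F98902, and the median difference between arrays was 3.26 in Cm489 and -2.30 in F98902, with all 5 running as m15 did. Of 9 leaf photosynthesis probe sets 7 were tested, with mean log2 signals of 7.86 and 9.26 in Cm489 and 10.09 and 9.17 in F98902, and the defining C4 gene pep1 was under 4 on 3 of 4 arrays. The same pattern was seen in 5 of these 7, while me3 (0.42 and 2.63) and a ppdk1 probe set (-0.62 and -0.28) ran otherwise; 4 of the 7 belong to the single gene ppdk1. Both tested kernel probe sets followed it. That of gz27 had signals of 6.68 and 9.58 in Cm489 and 8.10 and 6.45 in F98902. That of bt2, near the floor level at 4.35 to 5.55, had differences of 0.13 and -1.19 between the arrays. Other probe sets of gz27 were at the floor on all arrays (1.69 to 1.72 and 1.90 to 1.93). An sh2 probe set, not tested, was above 4 only on Cm489 replicate 1 (5.16), so it ran the other way in Cm489. A measure of RNA integrity, the signal of control transcripts at the 5' end minus that at the 3' end, differed between the arrays by 0.83 and -1.63 for GAPDH and 0.59 and -0.82 for cyclophilin, but by 0.0487 and 0.24 for ubiquitin and -1.02 and -1.10 for EF1-alpha. Between the lines, this measure for EF1-alpha was -3.42 and -4.44 in Cm489 and -1.88 and -2.97 in F98902, without overlap. For GAPDH, cyclophilin and ubiquitin the lines overlapped. The part of these markers and controls in the MADS box values was not tested.

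**Figure D4:**
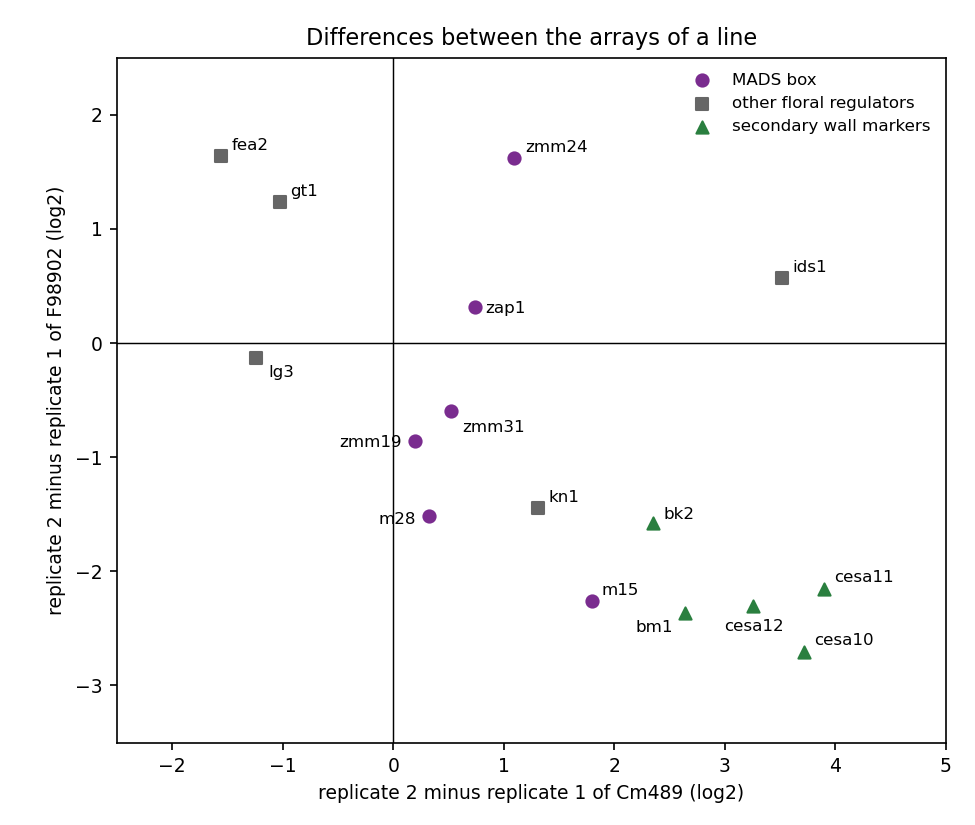
Log2 difference between the arrays of a line, replicate 2 minus replicate 1, in Cm489 (x axis) and F98902 (y axis) for the tested MADS box probe sets (purple circles), other floral regulators (grey squares) and secondary wall markers (green triangles). The point for m15 (1.79 and -2.26) lies in the same quadrant as the wall markers, and those for zmm24 and zap1 lie in the upper right quadrant.

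The genes whose pattern over the 4 arrays was most like that of zmm24, of 867 probe sets with a single gene and signal on all arrays, were LOC732757, expa5 (LOC541907), an expansin gene of wall loosening, and mpao1 (LOC541983), a polyamine oxidase gene. The likeness was the root mean square difference of the centred values over 4 arrays, at 0.25, 0.37 and 0.42. Expa5 had signals of 10.18 and 12.06 in Cm489 and 5.93 and 8.24 in F98902, and LOC732757 had 11.50 and 12.60 in Cm489 and 7.63 and 9.47 in F98902. The signals of mpao1 were 12.32 and 12.67 in Cm489 and 8.26 and 10.03 in F98902. All 3 were lower on both F98902 arrays, which follows from their choice by likeness to zmm24. With 4 values this likeness is a description only.

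Other regulators of the inflorescence and shoot showed a similar split. The list of other floral regulators found 16 probe sets of 15 genes, after the catalase gene cat2, which shares the symbol ct2 with a meristem gene, was left out once its names were seen. Many other names on that list had no probe set named here. Over the whole array 32.4% of 17621 probe sets were below 4 on all arrays, and 28.2% of those with a single gene. Of the 16 probe sets of the list, 11 (10 genes) were below 4 on all arrays, between 1.61 and 3.15. Those included zfl1, the LEAFY-type gene upstream of floral MADS box genes, id1, a regulator of flowering time, bd1 and ba1, which act in spikelet and axillary meristems, ts2, which acts in sex determination of the tassel, and tb1, a repressor of branching, with lg1, lg2, gl15 and ub2.

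Signal was present for 5 genes, and 0 of 5 passed the test over all probe sets (limma adjusted p from 0.720 to 0.983; 0 at an unadjusted p under 0.05). Over all tested probe sets 1.78% passed, so 0 of 5 is near the background. None of the 5 reached the smallest differences that passed anywhere, 3.62 and -3.70, so this count too says little about them. In 3 the F98902 mean was higher and in 2 lower, against 51.2% lower over all tested, with a median difference of 0.13. The median turned to -0.29 without Cm489 replicate 2 and to -0.49 without F98902 replicate 2, and was 0.64 and 0.75 without the replicate 1 array of each line. The differences of fea2, gt1 and kn1 changed sign without Cm489 replicate 2 and also without F98902 replicate 2. The AP2-type gene ids1 (LOC541684), which limits the number of florets in a spikelet, had signals of 5.24 and 8.75 in Cm489 and 4.67 and 5.24 in F98902. Its difference of -2.04 (SE 1.31, limma adjusted p = 0.777) rested on Cm489 replicate 2, the only array above 6, and was -0.29 without it. The meristem gene kn1 (LOC542391), of the homeobox class, had signals of 9.94 and 11.26 in Cm489 and 10.72 and 9.27 in F98902, with overlapping lines.

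The remaining regulators moved otherwise between arrays. The receptor-like gene fea2 (LOC542675), which limits meristem size, had signals of 7.91 and 6.35 in Cm489 and 6.53 and 8.17 in F98902. The homeobox gene gt1 (LOC542140), which restrains tiller buds, had signals of 8.13 and 7.11 in Cm489 and 7.13 and 8.37 in F98902. Both thus were low on the arrays where m15 and the wall markers were high. The knotted-class gene lg3 (LOC542487) had signals of 8.76 and 7.52 in Cm489 and 9.28 and 9.15 in F98902. Its lines differed by 1.08 (SE 0.59, limma adjusted p = 0.720). Leaving out Cm489 replicate 2 lowered this to 0.45, and leaving out Cm489 replicate 1 raised it to 1.70. The lines did not overlap for 2 of the 5 tested genes of this list, lg3 (higher in F98902) and ids1 (lower in F98902). Among all tested probe sets 38.0% did not overlap.

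**Figure D5:**
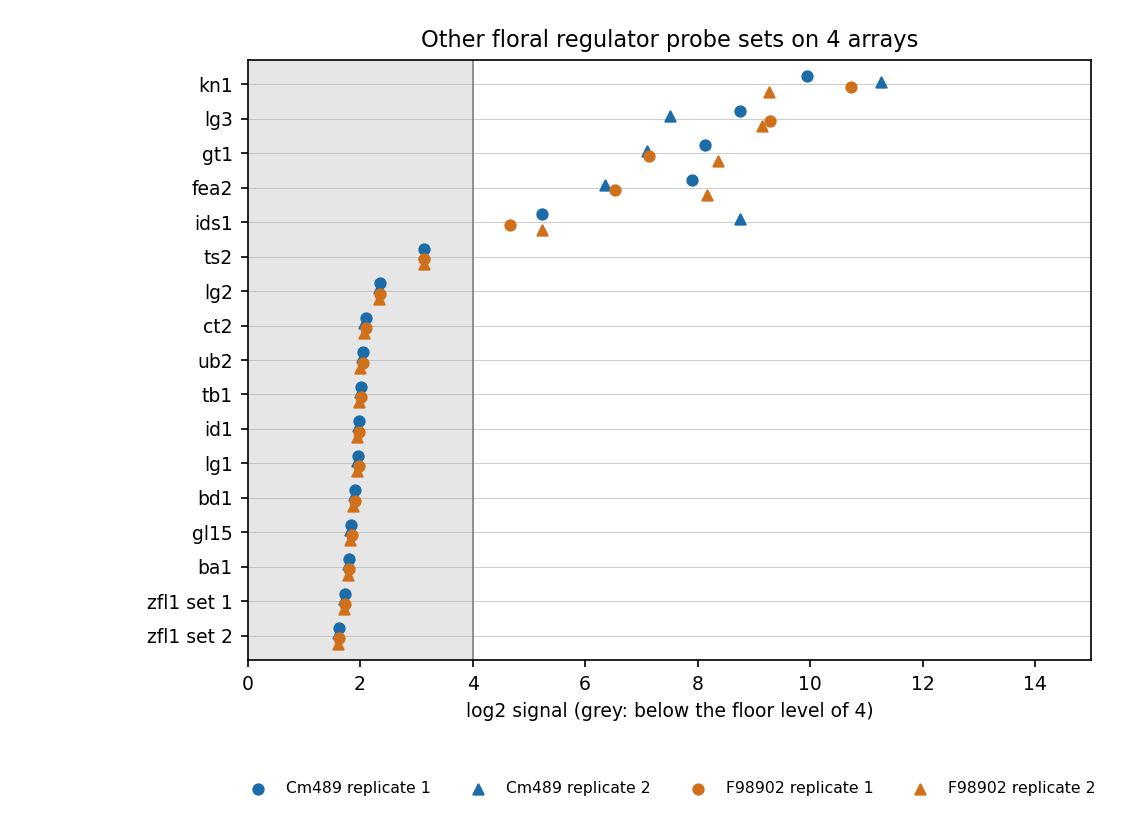
Log2 signal (x axis) of each of the 17 probe sets that match the list of other floral regulators (y axis; ct2 here is the catalase gene cat2), 1 point per array, with the same colours and shapes as in the plot of MADS box probe sets. The grey area is below the floor level of 4, where 12 of these 17 lie, and the others run from 4.67 (ids1) to 11.26 (kn1).

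Pollen and kernel markers were mostly at the floor. Of 7 pollen and anther probe sets 6 were below 4 on all arrays. They were those of the profilin genes pro1, pro2 and pro3, of mgs1 and mgs2, and a probe set of the alpha-tubulin gene tua1 (1.94 to 1.97). Another probe set of tua1, a gene of a type used in many tissues, ran from 10.55 to 11.78. Of 9 kernel probe sets 6 were below 4 on all arrays and 2, of gz27 and bt2, were above it on all. Over all 17621 probe sets 32.4% were below 4 on all arrays. The array medians ran from 6.99 to 7.11, and r across all probe sets, a description only, was 0.952 within Cm489, 0.938 within F98902 and 0.899 to 0.945 between lines.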

How the data were processed

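The deposited table holds 1 log2 signal per probe set and array, which the authors made with GCRMA, per the submitters' processing notes; its version is not given in the sources used here. Base 2 was taken from the range, 1.18 to 15.28. Of 17734 probe sets 113 controls were left out. Names came from the platform annotation, updated through gene numbers to the RefSeq annotation of Zm-B73-REFERENCE-NAM-5.0 (1377 of 1452 matched). No coordinates or sequences are given.

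Probe sets at or above log2 4 on at least 2 of 4 arrays (11242) were fitted with limma 3.58.1 (R 4.3.3; lmFit and eBayes with a constant prior) for F98902 minus Cm489. P-values are two-sided and Benjamini-Hochberg adjusted over all tested, with a threshold of 0.05. The fit was also run on simulated data with independent arrays, drawn from its own fitted prior. Those data lack the shared differences between the arrays of a line, so they do not check the fit for the arrays here. Every member is accounted for; values on all arrays are given for those past the threshold, with the largest differences, the brightest and the most variable, and for the tested genes of the other list with the largest differences. Members and lists were chosen with earlier results of these data known. Replicate numbers were not taken as pairs: the labels do not say so, and the differences within lines correlated at -0.558 across probe sets. Alternatives were other filters, priors, scalings, floors, a replicate block, 1 probe set per gene and leaving out each array. The number of arrays limits the precision.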

Additional observations from a re-analysis of the deposited data

How the results depend on the processing

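No MADS box or other floral regulator probe set passed under any alternative run, including the replicate block (0 and 0) and each left-out array (0 to 0 for both); in the latter a lone array takes its variance from the other line. At an adjusted p under 0.05 limma gave 0 MADS box probe sets, against 2 at an unadjusted p under 0.05. The count over all probe sets, 200, was 79 with no dim filter, 8 with an intensity-dependent robust prior, 115 with values under log2 4 raised to 4, 0 under the replicate block and 0 to 0 with an array left out; the cause was not tested. The crossed pairing, chosen after seeing the data, gave 284 in all, 0 of them MADS box or other floral regulator probe sets. The median difference of the tested MADS box probe sets was lowest, -0.51, without F98902 replicate 1 and highest, 0.67, without F98902 replicate 2. With a floor at log2 6, 4 MADS box probe sets lay above it on all arrays, and with a floor at 3 there were 6. Of 60 values of the 6 tested differences 54 kept direction and 6 turned. These differences could not change with no dim filter, the intensity-dependent robust prior, the replicate block or values under 4 raised to 4. Their direction under those settings was fixed in advance. As none passed in the first place, keeping the side of the threshold means only that a difference still did not pass. With 1 array left out differences ran from -0.77 to 0.74 (m28), -0.25 to 0.60 (zmm19) and -0.0788 to 2.18 (m15), each with a turn, and from -4.79 to -3.17 (zmm24), -1.79 to -1.05 (zap1) and 0.26 to 0.86 (zmm31), with none. With equal medians m28 turned to 0.0393 and with quantile normalization to 0.0047. Members by current symbol alone were not run, since 0 matched. Floor values limit 14 of 20 members to a bound.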
